A study of Mus musculus with 30 samples.

Results

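The clustered protocadherins are neuronal cell-surface adhesion proteins encoded in 3 neighbouring gene clusters, alpha, beta and gamma, on mouse chromosome 18. They were taken as every gene on that chromosome whose symbol begins with Pcdha, Pcdhb, Pcdhga, Pcdhgb, Pcdhgc or Pcdhac followed by a number, which gave 58 of the 48709 genes counted. The alpha cluster held 14 genes between positions 36930184 and 37187661 of GRCm38, the beta cluster 22 genes between 37264938 and 37524479, and the gamma cluster 22 genes between 37661793 and 37841873, all on the plus strand. Adult C57BL/6 mice supplied RNA from 5 tissues: spleen, quadriceps femoris muscle, liver, kidney and brain. Each tissue had 3 libraries from wild-type (WT) control mice and 3 from Ctcf haploinsufficient mice (Ctcf+/-, here called heterozygous), which makes 30 libraries. The series describes 3 mice of each genotype for all tissues, so libraries of different tissues may come from the same animals, but no label ties a library to an animal. The labels give no sex and do not say how the Ctcf allele was made, and the whole animal carries it, so cell types are not separated. The series title asks about intron retention under reduced Ctcf dosage, which was not analysed here. The comparisons below concern how much of each protocadherin was expressed in each tissue and genotype.

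Each alpha and gamma gene begins with its own large variable exon, which encodes the extracellular and transmembrane parts and has its own promoter, and is spliced to constant exons that all genes of that cluster use. Beta genes have a single coding exon and no constant part. Single neurons choose a few of these promoters, largely at random, and the resulting combination of surface proteins takes part in self-recognition of dendrites and axons. Ctcf, a zinc-finger DNA-binding protein, and cohesin, the ring complex that extrudes chromatin loops, bind at most of these promoters and at distant enhancers, and link them. The C-type members (Pcdhac1, Pcdhac2, Pcdhgc3, Pcdhgc4 and Pcdhgc5) lie at the ends of the alpha and gamma clusters and are used in a more uniform way, and some of their promoters, and that of Pcdhb1, lack the conserved element found at the others.

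The annotation used for counting reflects this layout, and it decides what each value measures. All 14 alpha genes had 4 exons, and 3 stretches of 59, 89 and 2712 bases (2860 in all) lay in the exons of every alpha gene. In the gamma cluster 19 of 22 genes had 4 exons, and 59, 89 and 1968 bases (2116 in all) lay in every gene. No base was common to the beta genes, all 22 had 1 exon, and 19 overlapped no other gene. Pcdhb12 shared 63.5% of its bases with the gene model Gm37446, so its value covers only part of the gene. Fragments that overlapped exons of several genes were set to be left out. An alpha or gamma value therefore comes mainly from the gene's own part, above all its variable exon. The output of the constant exons is largely missing from the values. The median unshared length was 2475 bases in alpha, 3714 in beta and 2587 in gamma. Near-identical stretches between variable exons, or between beta genes, can also lose fragments or send them to the wrong copy, and strand was not used, so each value is uncertain to that extent.

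**Figure D1:**
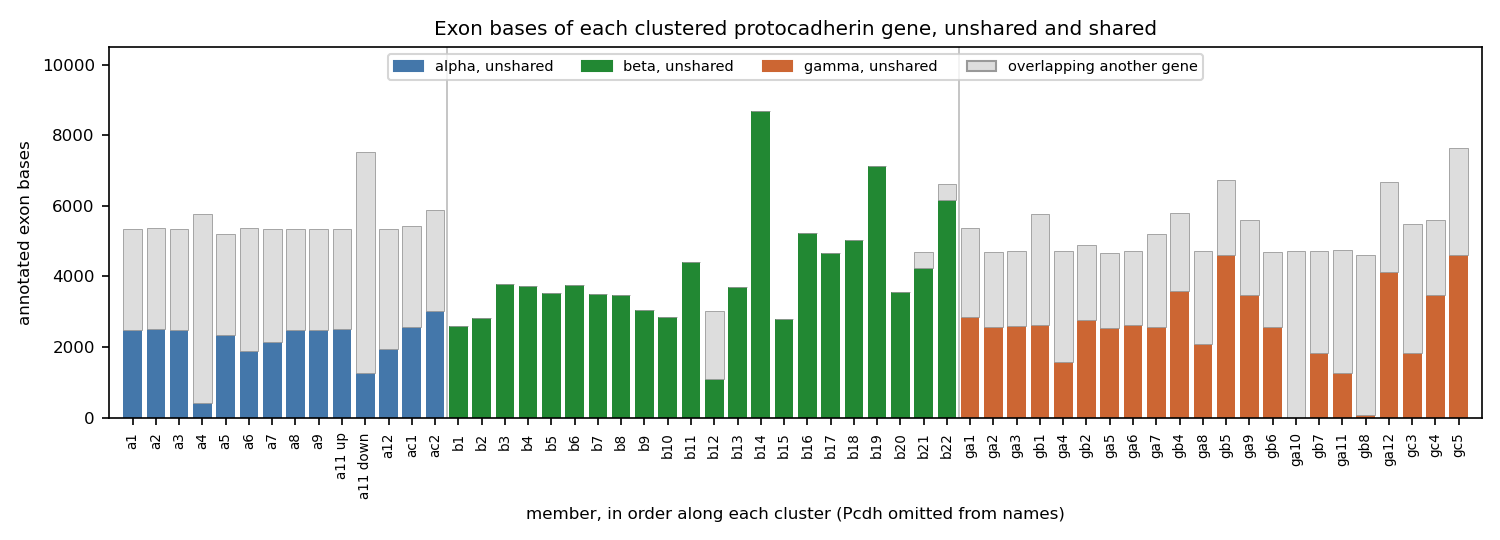
Bars show annotated exon bases of each of the 58 genes in order along the clusters, coloured where no other gene's exon overlaps and grey where one does. Grey bases are present in every alpha and gamma bar and absent from 19 of the 22 beta bars. In beta, Pcdhb12 is grey over 63.5% of its bases, Pcdhb21 over 9.7% and Pcdhb22 over 6.9%. Pcdhga10, with 0 unshared bases, has no coloured part.

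Members with little unshared sequence were almost uncounted whatever their expression. Pcdhga10 had 0 unshared bases, Pcdhgb8 78 and Pcdha4 404, and these genes stood between 0.0838 and 0.127 CPM in WT brain (CPM, counts per 1 M counts, scaled by TMM over the 6 libraries of a tissue). Pcdhga10 still held up to 11 counts in a brain library, so not every fragment on shared exons was left out. The symbol Pcdha11 belonged to 2 identifiers. The upstream one (ENSMUSG00000007440) begins where RefSeq's table places Pcdha10, and it was counted like its neighbours. The downstream one (ENSMUSG00000102206), with 1268 unshared bases that unnamed gene models such as Gm10544 border, was at 0.0604 CPM. Pcdhga11, with a similar 1256 unshared bases, stood at 10.7 CPM in WT brain. The reason for the low downstream value was not tested. These 4 genes failed the filter on low counts in brain, so 54 of 58 could be tested there: 12 alpha, 22 beta and 20 gamma genes. Readthrough models that span the clusters (Gm42416, Gm37013, Gm37388 and Gm38182) held 0 counts in brain.

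Libraries held 49.8 M to 131.6 M counts, and the median by tissue was lowest in liver (66.8 M) and brain (70.6 M) and highest in muscle (97.0 M). Ctcf was lower in every heterozygous library than in every WT library of all 5 tissues. In brain it stood at 66.5, 68.1 and 71.7 CPM in WT and 40.9, 44.4 and 42.8 CPM in heterozygous libraries, and it fell by 0.69 on the log2 scale (SE 0.06, edgeR adjusted p = 0.0259). Outside brain Ctcf did not pass the threshold of 0.05 after adjustment, with log2 fold changes between -0.70 (kidney, adjusted p = 0.107) and -0.57 (muscle, adjusted p = 0.2497). Defining markers of each labelled tissue were present. P-values measure only the spread between these libraries, which the labels do not tie to separate animals.

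In WT brain Pcdhac2 led the alpha cluster, Pcdhgc5 and Pcdhgc3 led the gamma cluster, and the levels within a cluster spanned more than an order of magnitude. To compare genes, levels were divided by the unshared exon length in kilobases, for genes with at least 1000 unshared bases. Pcdhac2 stood at 7.52, 6.80 and 11.1 CPM per kb (mean 8.47) and Pcdhgc5 at 17.9, 20.01 and 24.3 CPM per kb (mean 20.7). Both belong to the C-type group, and Pcdhgc5 had the highest mean of all members. The other C-type genes did not lead, with Pcdhac1 at 1.03 CPM per kb, the 7th of 12 tested alpha genes, and Pcdhgc4 at 4.57 CPM per kb, the 7th of 20 tested gamma genes. The median level per kb was 1.04 over the 12 tested alpha genes, 1.22 over the 22 beta genes and 3.97 over the 20 tested gamma genes, so the typical gamma gene was counted more deeply per base than the typical alpha or beta gene.

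Below Pcdhac2, Pcdha12 had a mean of 2.46 CPM per kb and Pcdha5 1.33, and Pcdha8 was the lowest tested alpha gene at 0.318. The highest tested alpha gene exceeded the lowest tested one by 26.7 times. The downstream Pcdha11, which was not tested, was lower still at 0.0477 CPM per kb. Of the 11 pairs of neighbours in this order, 2 did not overlap between libraries, so the order among the middle alpha genes was not resolved. The alpha genes also moved together between libraries. Their summed level was 47.3, 41.8 and 68.6 CPM in WT and 46.6, 53.8 and 70.5 CPM in heterozygous brain, highest in replicate 3 of both genotypes. Pcdhac2 made up 48.2%, 49.3% and 49.0% of that sum in the WT libraries and 47.7%, 47.8% and 46.7% in the heterozygous ones, a nearly constant share of a sum that differed widely. The summed level of 5 neuron markers (Rbfox3, Snap25, Syt1, Tubb3 and Map2) was highest in the same libraries, at 6408 CPM in WT replicate 3 against 5300 and 5010, and at 5991 CPM in heterozygous replicate 3 against 5388 and 5369. All 5 markers were present in every brain library. In bulk tissue, fewer cells of a type and less RNA per cell cannot be told apart, and the part of this in the alpha sum was not tested.

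The beta genes had no dominant member. Pcdhb9 led at 4.41 ± 0.0598 CPM per kb (SD, n = 3), followed by Pcdhb17 at 3.37 and Pcdhb20 at 3.33, whose libraries overlapped. Pcdhb1, the member nearest the alpha cluster, was the lowest at 0.0629, which put it 70.2 times below Pcdhb9. Without division by length the leader was Pcdhb17, so the first place depends on the length used. Of 21 neighbouring pairs in the order of levels, 4 did not overlap.

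In gamma, Pcdhgc5 and Pcdhgc3 overlapped between libraries (means 20.7 and 17.0 CPM per kb), and Pcdhga11 came next at 8.49. The lowest tested gamma gene was Pcdhgb5 at 1.10 CPM per kb, 18.9 times below Pcdhgc5. Of 19 neighbouring pairs, 5 did not overlap. Pcdhgc5 alone gave 32.2% ± 2.28 of all gamma counts in WT brain (SD, n = 3) and Pcdhgc3 10.5% ± 0.556, with the rest spread over 20 genes.

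**Figure D2:**
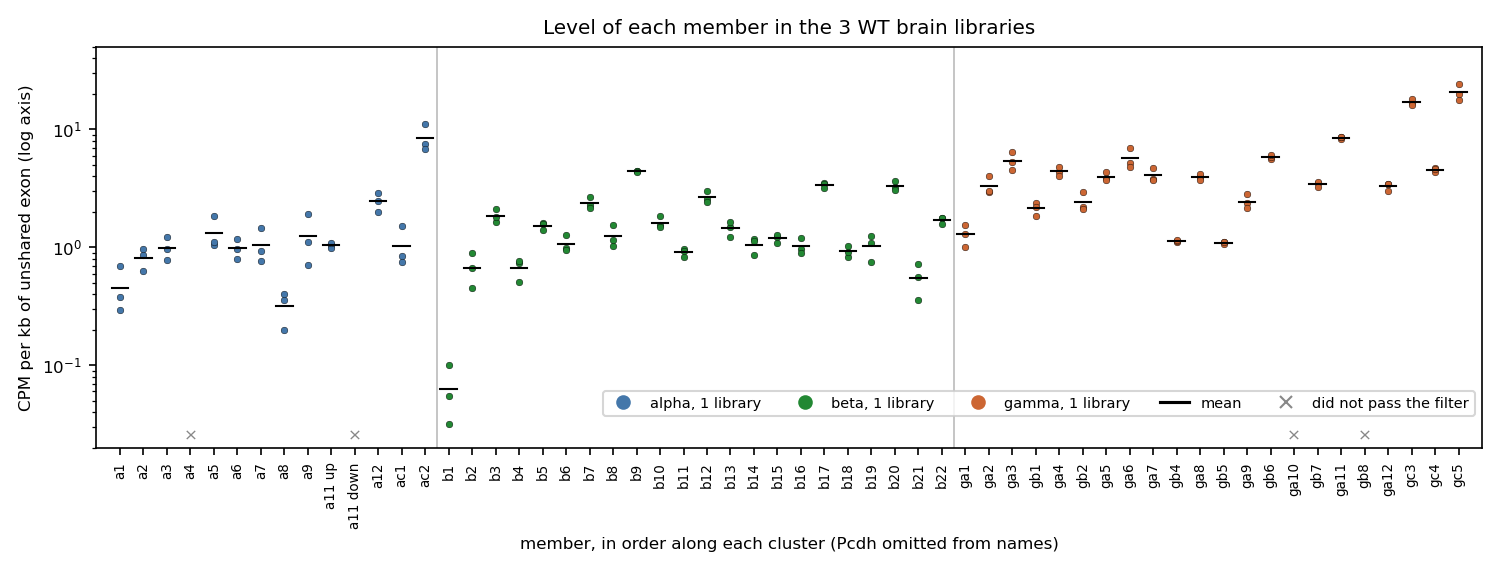
Points show the level of each member in the 3 WT brain libraries, in CPM per kb of unshared exon on a log axis, with the mean as a bar and a cross for the 4 genes that did not pass the filter. Pcdhac2, Pcdhgc3 and Pcdhgc5 stand above the rest of their clusters, and Pcdhb1 lies far below the other beta genes.

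Outside the brain the 3 clusters differed in how much of them remained. The sum of all members was 482 ± 48.7 CPM in WT brain, 24.6 ± 1.01 in kidney, 13.5 ± 3.56 in muscle, 6.45 ± 2.25 in liver and 2.68 ± 0.892 in spleen (SD, n = 3). These are levels scaled within each tissue, and the order of kidney and muscle among them was not kept under another scaling, given below for beta and gamma. Gamma was the largest part in spleen (83.7% of the sum), liver (64.0%), brain (61.3%) and kidney (56.7%), whereas in muscle beta gave 61.7%. Alpha gave 10.8% in brain and at most 3.64% in any WT library of another tissue. These are shares of counts, not divided by exon length, and the median unshared length was 3714 bases in beta and 2587 in gamma. Which cluster was largest per base, in muscle or elsewhere, was therefore not settled by them. The balance between the clusters in counts differed between tissues as well as their level.

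Alpha expression was near the limit of counting outside the brain. In kidney 13 of 14 alpha genes had 3 counts or fewer in each WT library, in liver 12, and in muscle and spleen all 14. A library with 0 counts allows a level of up to 3 counts, a limit that covers counting error only. Against that limit Pcdhac2, at 0 counts in each WT muscle library, was at least 354-fold higher in WT brain than in muscle. In WT kidney it had 1, 3 and 0 counts and in WT spleen 0, 0 and 2, where 3 counts is a reference level and not a limit. Against that reference level Pcdhac2 was 749-fold higher in WT brain for kidney and 747-fold higher for spleen. In liver it had counts in 2 of 3 WT libraries, 0.0348 CPM in replicate 2 and 0.147 CPM in replicate 3. Replicate 3 of WT liver also held the highest sums of neuron markers (42.2 CPM against 16.5 and 17.7) and of oligodendrocyte markers (30.8 CPM against 2.91 and 3.77). The summed alpha level was 0.328 CPM there and 0.0295 and 0.0348 in the other WT liver libraries. In heterozygous liver all alpha genes were at 0 counts. The part of brain-type RNA in that library was not tested.

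Beta and gamma genes were measured in kidney and muscle by many counts. The beta sum was 9.61, 11.5 and 10.6 CPM in WT kidney and 6.07, 8.54 and 10.3 CPM in WT muscle, against 1.59, 1.98 and 3.06 CPM in liver and 0.306, 0.433 and 0.513 CPM in spleen. The gamma sum was 13.7, 13.8 and 14.1 CPM in kidney, 3.65, 5.33 and 6.49 CPM in muscle, 3.10, 3.62 and 5.60 CPM in liver, and 1.40, 2.42 and 2.93 CPM in spleen. On this scale, set within each tissue, kidney was the highest of the 4 for gamma with no overlap, while the beta sums of kidney and muscle overlapped. The order of kidney and muscle depended on the scaling. With 1 TMM scaling over the 15 WT libraries, an alternative added after seeing the data, the gamma sum was 10.5, 10.7 and 10.9 CPM in kidney and 6.22, 9.24 and 11.1 CPM in muscle, which overlapped. The beta sum was then 7.32, 8.82 and 8.20 CPM in kidney and 10.3, 14.8 and 17.6 CPM in muscle, higher in every muscle library.

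**Figure D3:**
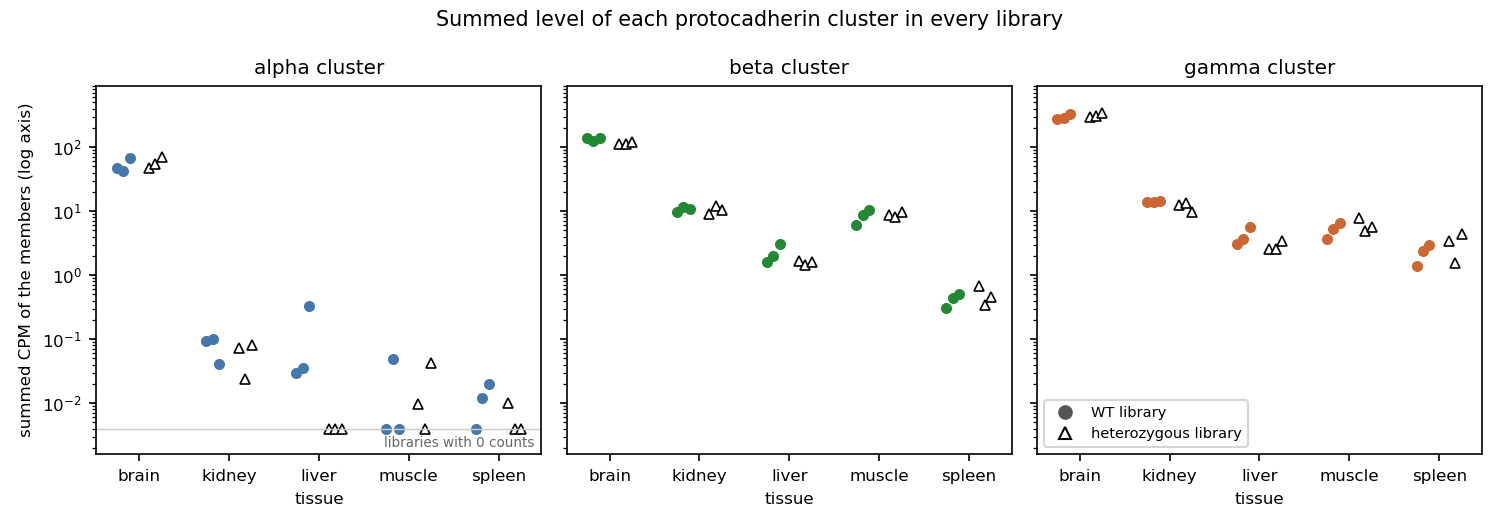
Each point is the summed CPM of a cluster's members in 1 library (log axis) by tissue, filled circles for WT and open triangles for heterozygous libraries. Brain lies far above the other tissues in all 3 clusters, and alpha lies at a few counts or at 0 outside it.

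The member with the highest mean level per kb was not the same in every tissue. Pcdhgc3, a C-type gene that is broadly used, led gamma in kidney (3.14, 3.54 and 3.41 CPM, 1.85 per kb), liver (1.68, 1.70 and 2.18 CPM, 1.02 per kb) and muscle (0.950, 1.16 and 1.16 CPM, 0.599 per kb). In spleen Pcdhgb6 led instead, at 0.262, 0.385 and 0.493 CPM (0.148 per kb). Among beta genes the highest mean belonged to Pcdhb17 in kidney (0.311 per kb) and liver (0.0631 per kb), Pcdhb20 in muscle (0.444 per kb, from 0.845, 1.58 and 2.31 CPM) and Pcdhb22 in spleen (0.0262 per kb). Without division by length it belonged to Pcdhb14 in kidney and Pcdhb22 in liver, so the first place among beta genes was not settled there. The highest alpha genes, Pcdha12 in kidney, Pcdha2 in muscle and Pcdhac2 in liver and spleen, rested on at most 9 counts in a library.

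The tissue difference was tested on the 15 WT libraries in 1 fit, with each of the other tissues read against the same 3 brain libraries, so the 4 comparisons are not independent. All 53 members tested were called higher in brain in each, where 35.5% of all genes were called higher in brain than in kidney, 39.9% than in liver, 39.9% than in muscle and 42.8% than in spleen. The 5 untested members were Pcdha4, the downstream Pcdha11, Pcdhb1, Pcdhga10 and Pcdhgb8. Many of the 53 entered the test only because brain expressed them, and those had to differ. On its own libraries, kidney would have passed 38 of them (20 beta and 18 gamma), muscle 23 (12 beta and 11 gamma), liver 5 and spleen 3, with no alpha gene in any. Among these, the log2 fold change of brain over kidney ran from 2.27 (Pcdhb4) to 5.17 (Pcdhga11), over muscle from 1.65 (Pcdhb20) to 4.97 (Pcdhga3), over liver from 3.002 (Pcdhgc3) to 4.67 (Pcdhb17), and over spleen from 4.36 (Pcdhgb5) to 5.99 (Pcdhgc4). These sizes depend on scaling across tissues. With total counts in place of TMM the median difference over all 53 members moved on the log2 scale. It was 1.07 higher against liver, 1.27 higher against muscle, 0.109 higher against kidney and 0.0327 lower against spleen. The direction held for every member, but it was fixed in advance for those that entered only through brain.

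The 5 C-type genes had unlike levels outside the brain. Pcdhgc3 stood at 31.0 CPM in WT brain and at 3.36, 1.86, 1.09 and 0.0968 CPM in kidney, liver, muscle and spleen, and the log2 fold change of brain over kidney, liver and muscle, where it passed the filter on the WT libraries of that tissue alone, was 3.11, 3.002 and 3.57 (SE 0.22, 0.22 and 0.23). In WT spleen it passed only through brain. Pcdhgc5, the last gamma gene, stood at 95.5 CPM in brain and at 0.0914, 0.163, 0.0440 and 0.0535 CPM in kidney, liver, muscle and spleen, where it passed this filter on WT libraries through brain alone, so no fold is given. Pcdhgc4, between them, stood at 15.9 CPM in brain and 0.158, 0.0720, 0.0481 and 0.265 CPM in the others. Of these 4 tissues, spleen was the one whose WT libraries alone passed Pcdhgc4, at 0.204, 0.421 and 0.171 CPM, which overlapped the kidney libraries at 0.220, 0.101 and 0.153 CPM. Pcdhac1 had a mean of 2.64 CPM in brain and at most 3 counts in any WT library elsewhere, and was at least 77.0-fold higher in brain than in kidney. In liver most of the Pcdhgc5 level came from WT replicate 3 (0.459 CPM against 0.0295 and 0), the library described above with the higher neuron and oligodendrocyte marker sums.

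In brain 1 clustered protocadherin rose in heterozygous libraries in the fit without a replicate block, in which none fell. With the replicate number as a block Pcdhb13 and Pcdhga6 fell as well (log2 fold change -0.85 and -0.54, edgeR adjusted p = 0.0156 in both). The gene that rose was Pcdhgb4 (ENSMUSG00000103585, chromosome 18, 37720369 to 37841870), a gamma gene of the b subfamily. It has 5 exons, constant ones included, and 3588 of its exon bases are unshared. Pcdhgb4 stood at 3.96, 4.06 and 4.14 CPM in WT and at 8.28, 8.72 and 9.34 CPM in heterozygous libraries. The groups were far apart and each was tight. This amounts to a log2 fold change of 1.12, with SE 0.10 and an adjusted p of 0.0255 by edgeR, and its share of all gamma counts went from 1.38% ± 0.103 to 2.81% ± 0.0988 (SD, n = 3). Of all genes tested in brain 0.0157% were called, which is 3 genes. Pcdhgb4 is a small part of its cluster, which summed to 277, 280 and 328 CPM in WT and 294, 301 and 345 CPM in heterozygous libraries, with overlap. Leaving out any 1 of the 6 libraries took the adjusted p above the threshold (0.1005 to 0.292), and fitting all 30 libraries at once gave an adjusted p of 1. The log2 fold change stayed between 1.07 and 1.18 in these fits.

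Below that threshold the beta and gamma genes differed in direction. At an unadjusted p under 0.05 (edgeR), 9 members were higher and 11 lower in heterozygous brain, where 1.39% of all genes tested were higher and 1.57% lower. No beta gene was among the higher ones and 8 were among the lower, against 8 higher and 3 lower gamma genes, and 1 higher alpha gene. The 8 lower beta genes became 3 without WT replicate 1, 5 without heterozygous replicate 1 and 5 without heterozygous replicate 2, and 12 with the replicate block; the 8 higher gamma genes became 5 without heterozygous replicate 2. In the fit of all 30 libraries 1 beta gene was lower and 1 gamma gene higher at that level. By the libraries themselves, 8 members lay above all WT libraries and 11 below, where 3.73% and 4.1% of all genes did. The median log2 fold change was 0.09 over the 12 tested alpha genes, -0.24 over the 22 beta genes and 0.17 over the 20 tested gamma genes, beside -0.004 over all genes. None of these other members passed the adjustment over all genes in the unblocked edgeR fit. With the replicate number as a block, 3 members were called, Pcdhgb4 (adjusted p = 0.000379) and the 2 that fell, where 0.115% of all genes were. With DESeq2, 4 were called, Pcdhgb4 (adjusted p = 6.3e-17), Pcdhb13 (0.0018), Pcdhb9 (0.00909) and Pcdha6 (0.0184), where 0.168% of genes were.

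The beta genes carried the differences toward lower values. Pcdhb13 (37442500 to 37446209, a single exon shared with no other gene) stood at 5.51, 4.51 and 6.08 CPM in WT and at 2.54, 2.88 and 3.44 CPM in heterozygous brain. The groups did not overlap, and the fitted difference was -0.86 on the log2 scale (SE 0.16, edgeR adjusted p = 0.679). Pcdhb9 (37400855 to 37403909), the leading beta gene, stood at 13.7, 13.5 and 13.3 CPM in WT and at 10.1, 10.5 and 9.69 CPM in heterozygous brain. Its spread within a group was small and the groups were apart (log2 fold change -0.42, SE 0.08, adjusted p = 0.679). Summed over the cluster, beta stood at 139, 124 and 141 CPM in WT and 111, 112 and 121 CPM in heterozygous brain, again without overlap, and the log2 ratio of the means was -0.23. Beta's share of the 3 clusters was 26.2% to 30.0% in WT and 22.5% to 24.5% in heterozygous brain. The beta ratio was -0.23 also without replicate 3 of both genotypes. Among the marker lists, the skeletal muscle sum was lower in heterozygous brain (9.001 to 10.01 against 10.19 to 11.8 CPM, all 4 markers present in some library). The neuron, astrocyte, oligodendrocyte, microglia and endothelium sums overlapped between genotypes. Microglia overlapped narrowly, at 243.5 to 255.9 CPM in heterozygous and 255.6 to 276.1 CPM in WT brain. Of the 4 endothelium markers 1 had an unadjusted p under 0.05 (edgeR). The part of these cell types was not tested.

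The gamma genes went in both directions. Pcdhga8 stood at 8.31, 7.76 and 8.66 CPM in WT and 12.2, 10.1 and 11.6 CPM in heterozygous brain (log2 fold change 0.45, SE 0.10, edgeR adjusted p = 0.951). Pcdhgb5 stood at 5.13, 4.97 and 5.09 CPM against 6.82, 6.65 and 7.13 CPM (0.44, SE 0.09, adjusted p = 0.860). Pcdhgb7 stood at 6.45, 6.53 and 5.98 CPM against 8.16, 8.37 and 9.62 CPM (0.46, SE 0.10, adjusted p = 0.951). In each of these 3 genes the heterozygous libraries were the highest. Pcdhga12 went the other way, from 14.1, 12.4 and 14.3 CPM to 9.90, 9.96 and 11.5 CPM (-0.38, SE 0.10, adjusted p = 1), and so did Pcdhga6, from 13.6, 12.6 and 18.3 CPM to 9.21, 9.18 and 12.01 CPM (-0.55, SE 0.16, adjusted p = 1). Their heterozygous libraries all lay below the WT ones. These are neighbours of Pcdhgb4 in the same cluster, with the same constant exons.

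In alpha, Pcdha6 stood at 1.84, 1.4995 and 2.22 CPM in WT and 2.88, 3.48 and 3.40 CPM in heterozygous brain, with no overlap (log2 fold change 0.82, SE 0.17, edgeR adjusted p = 0.860). It was the only alpha gene whose groups were apart. Of the 12 tested alpha genes 11 had a positive log2 fold change, but that count was 3 without heterozygous replicate 3, 6 without WT replicate 2 and 7 without WT replicate 1. The alpha direction therefore rested on single libraries.

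The C-type genes showed small differences in brain. Their log2 fold changes were 0.22 for Pcdhac1 (SE 0.30), 0.07 for Pcdhac2 (SE 0.20), -0.14 for Pcdhgc3 (SE 0.08), -0.06 for Pcdhgc4 (SE 0.12) and 0.09 for Pcdhgc5 (SE 0.13). The WT and heterozygous libraries overlapped in all 5. Pcdhgc5 stood at 82.3, 92.2 and 112 CPM in WT and 91.8, 97.6 and 116 CPM in heterozygous brain. The lowest tested alpha gene and the lowest beta gene, Pcdha8 (0.09, SE 0.33) and Pcdhb1 (0.12, SE 0.54), overlapped as well, with wide errors.

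Read along the chromosome, the signs fell in stretches. From Pcdhb9 to Pcdhb22, the 14 beta genes nearest the gamma cluster, all 14 log2 fold changes were negative, from -0.86 to -0.08 with a median of -0.36. The 5 beta genes at the other end, Pcdhb1 to Pcdhb5, were all positive, from 0.03 to 0.20. In gamma, the 8 tested genes from Pcdhga7 to Pcdhga11 were positive (0.08 to 1.12), with Pcdhgb4 among them, between 3 negative genes on one side (Pcdhgb2 to Pcdhga6) and 3 on the other (Pcdhga12 to Pcdhgc4). These stretches were picked after their values were seen, and no test was made of them. Over 14 alternative settings 13 or 14 of the 14 genes from Pcdhb9 on stayed negative, and 7 or more genes of the Pcdhga7 to Pcdhga11 stretch stayed positive. The Pcdhb1 to Pcdhb5 stretch kept as few as 2 positive genes, without replicate 3 of both genotypes.

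**Figure D4:**
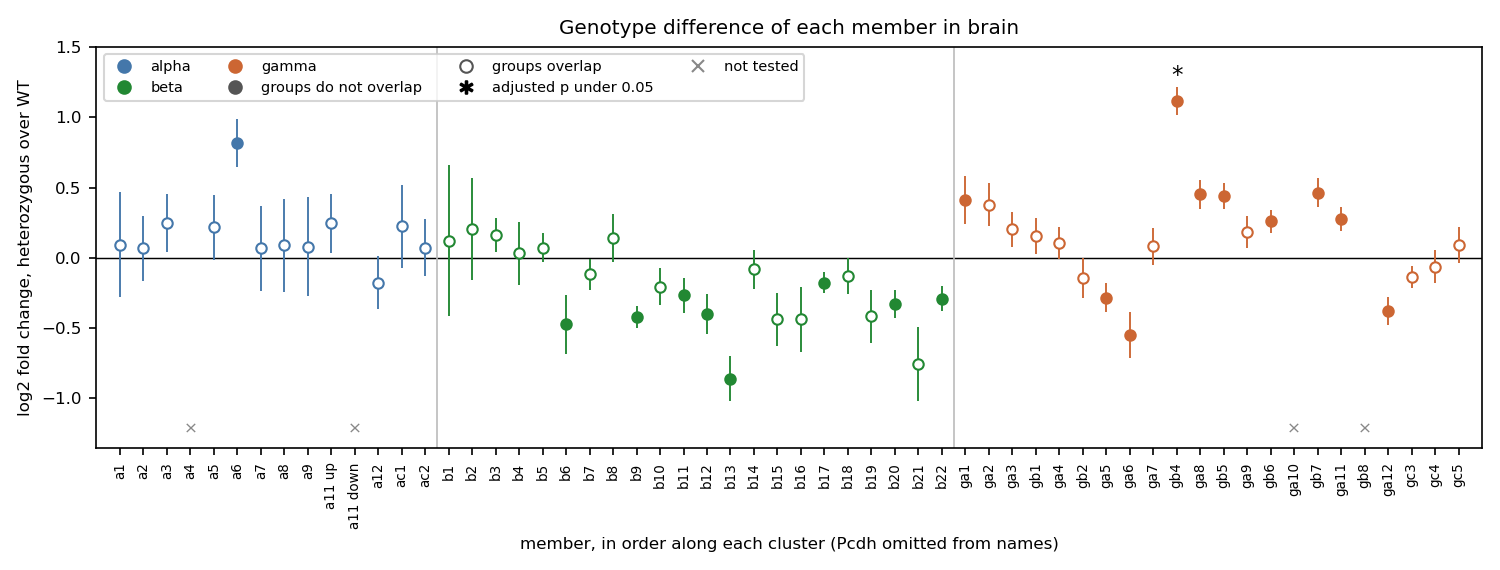
Points show the log2 fold change of heterozygous over WT brain for the 54 tested members, in order along the clusters, with the standard error as a bar. Filled points mark genes whose libraries do not overlap. The star marks Pcdhgb4, the gene past the adjusted threshold in the fit without a replicate block. The 14 beta genes from Pcdhb9 on all lie below 0, and the gamma genes from Pcdhga7 to Pcdhga11 above it.

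In kidney no member was called and the lower values prevailed among gamma genes. Of the 40 members tested (20 beta and 20 gamma), 0 passed in edgeR and 0 in DESeq2, where 0.0211% of all genes passed in edgeR. At an unadjusted p under 0.05, 3 members were higher and 8 lower, where 4% and 2.44% of all genes were. These counts became 2 and 3 without WT replicate 3, 2 and 4 without heterozygous replicate 1, 2 and 5 without WT replicate 2, 1 and 6 without WT replicate 1, and 1 and 5 without heterozygous replicate 3. The groups were apart in 3 members on the higher and 10 on the lower side, where they were in 6.15% and 5.28% of all genes. The median log2 fold change was -0.03 over the tested beta genes and -0.22 over the tested gamma genes. Replicate 3 of both genotypes held skeletal muscle markers (144 and 182 CPM, against under 0.3 in the other 4 libraries), and without these 1 member was higher and 3 lower at that p, the gamma median was -0.04, and the gamma log2 ratio of the sums moved from -0.25 to -0.10, still without overlap.

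Pcdhga12, a gamma gene, had the smallest p in kidney, at 0.713, 0.462 and 0.621 CPM in WT and 0.232, 0.240 and 0.213 CPM in heterozygous libraries. Its heterozygous level was below the WT level, at -1.39 on the log2 scale (SE 0.28, edgeR adjusted p = 0.247). Pcdhb13, lower in heterozygous brain as well, stood at 0.168, 0.203 and 0.143 CPM against 0.0528, 0.0240 and 0.0405 CPM (log2 fold change -2.07, SE 0.46, adjusted p = 0.321), on at most 18 counts in a library. Its heterozygous libraries held 5, 2 and 4 counts, so it passed the filter through the WT ones, where it was higher. Pcdhga7 stood at 1.18, 1.21 and 1.12 CPM against 0.644, 0.731 and 0.830 CPM (-0.67, SE 0.21, adjusted p = 0.554). In these genes every heterozygous library was below every WT library. Pcdhga6 (-0.70) and Pcdhb19 (-0.63) were apart in the same direction, and Pcdhb3 (0.84), Pcdhb7 (0.86) and Pcdhb8 (0.78) in the other. Pcdhb3, for example, stood at 0.178, 0.270 and 0.244 CPM in WT and 0.380, 0.395 and 0.466 CPM in heterozygous kidney. Among C-type genes, Pcdhgc3 had a log2 fold change of -0.33 (SE 0.21), Pcdhgc4 0.38 (SE 0.43) and Pcdhgc5 0.34 (SE 0.80), all with overlap.

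In muscle, with all 6 libraries, the separations were toward higher values, in 4 beta genes at the alpha end of the cluster and 2 gamma genes. None of the 33 members tested was called, where 0.0249% of all genes were. At an unadjusted p under 0.05 (edgeR) 5 members were higher and 0 lower, where 3.67% and 2.78% of all genes were, and the groups were apart in 6 members on the higher side and 0 on the lower, where they were in 5.91% and 6.28%. At that p, 2 members were higher and 2 lower without WT replicate 1, and 2 higher and 0 lower without heterozygous replicate 1. Pcdhb3 stood at 0.0672, 0.155 and 0.0877 CPM in WT and 0.217, 0.380 and 0.267 CPM in heterozygous muscle (log2 fold change 1.46, SE 0.44, adjusted p = 0.519). Pcdhb4 (1.04), Pcdhb7 (1.15), Pcdhb8 (1.73), Pcdhga3 (0.95) and Pcdhgb7 (0.81) were also apart. On the WT muscle libraries alone Pcdhb3, Pcdhb7, Pcdhb8 and Pcdhgb7 did not pass the filter, whereas Pcdhb4 and Pcdhga3 did. The former entered the test through the heterozygous libraries, where they were higher, which favours that direction. Some of the 6 members were apart narrowly and on few counts. Pcdhb8 had 10 counts in heterozygous replicate 2 and 10 in WT replicates 2 and 3. Pcdhb7 had 21 in heterozygous replicate 2 and 24 in WT replicate 2. Pcdhga3 had 21 in heterozygous replicate 3 and 23 in WT replicate 2. The separation of these genes thus rested on the scaling for depth. Pcdhgb4, the gene called in brain, stood at 0.221, 0.271 and 0.362 CPM in WT and 0.690, 0.587 and 0.342 CPM in heterozygous muscle, which overlapped (0.93, SE 0.37, adjusted p = 0.709). Its heterozygous replicate 3 was at the WT level. The median over the tested members was -0.03. Kidney markers summed to 8.36 to 62.4 CPM in WT muscle and to 0 to 4.97 CPM in heterozygous muscle, and their part in these values was not tested.

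In liver and spleen few members could be tested. In liver 6 passed the filter and 0 were called, where 0.0193% of all genes were. None was higher and 3 were lower at an unadjusted p under 0.05 (edgeR), where 2.48% and 2.08% of all genes were, and the groups were apart in the same numbers, where they were in 4.68% and 4.31%. The count of lower members was 1 without WT replicate 3, the library with the higher neuron and oligodendrocyte sums, 0 without heterozygous replicate 1 and 1 without heterozygous replicate 2, and 1 with total-count scaling. The log2 ratio of the sums went from -0.45 to -0.19 in beta and from -0.49 to -0.25 in gamma without WT replicate 3, with overlap in both. Pcdhgc3 stood at 1.68, 1.70 and 2.18 CPM in WT and 1.17, 1.06 and 1.44 CPM in heterozygous liver (log2 fold change -0.60, SE 0.24, adjusted p = 1). Pcdhb14 (-1.21) and Pcdhgb2 (-0.92) were the others that did not overlap. The endothelial marker sum (Cldn5, Pecam1, Cdh5 and Flt1, all present) was also lower in heterozygous liver, 38.5 to 54.6 CPM against 58.9 to 69.5 CPM, as was the neuron sum, 12.8 to 16.4 against 16.5 to 42.2 CPM. Their part was not tested. In spleen 9 members were tested and 0 called, where 0.242% of all genes were. Pcdhgc3 alone had an unadjusted p under 0.05 on the higher side (0.0437, 0.156 and 0.0906 CPM against 0.360, 0.124 and 0.366 CPM, with overlap, log2 fold change 1.53, SE 0.61, adjusted p = 1), and none did on the lower side, where 2.55% and 0.972% of all genes did. The count on the higher side was 0 without WT replicate 1, without heterozygous replicate 1 or 3, and with the replicate block. It stayed at 1 with each other library left out. Pcdhgc3 had 3, 13 and 9 counts in WT and 36, 9 and 35 in heterozygous spleen. It passed the filter only with the heterozygous libraries included, where its mean was higher. Hepatocyte markers summed to 31.2 to 40.1 CPM in WT spleen and 0.0700 to 0.289 CPM in heterozygous spleen. Kidney markers went the other way, from 0.168 to 0.423 CPM in WT and from 9.73 to 20.4 CPM in heterozygous spleen. The part of either was not tested.

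**Figure D5:**
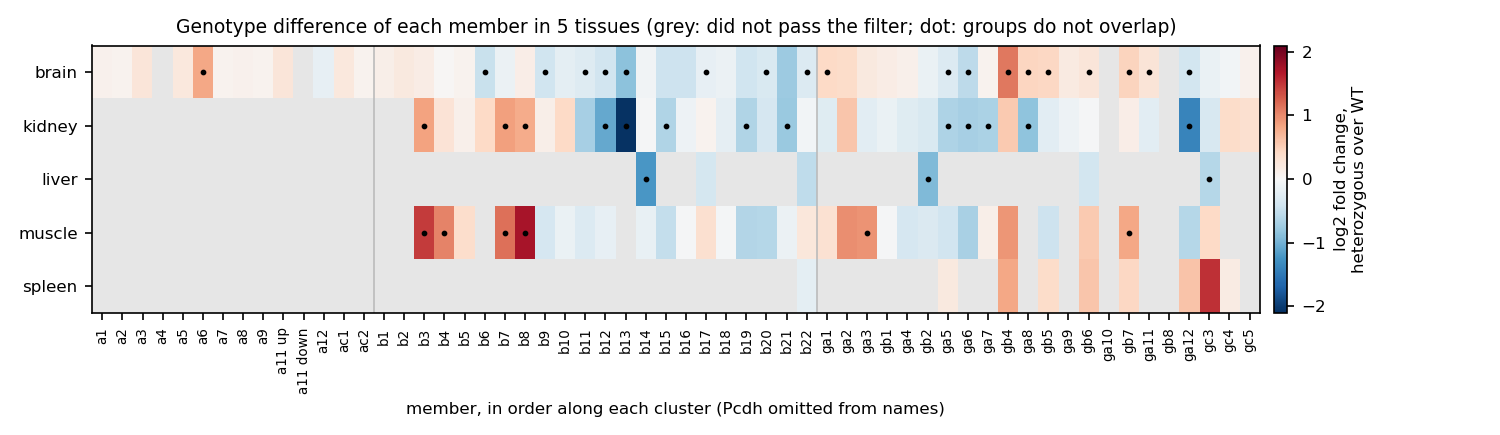
Colours show the log2 fold change of heterozygous over WT for each member (columns, in cluster order) in 5 tissues, red for higher and blue for lower in heterozygous libraries, grey where a member did not pass the filter, and a dot where groups do not overlap. Alpha is measured in brain alone, and Pcdhb13 is blue in brain and kidney, with log2 fold changes of -0.86 and -2.07. In kidney Pcdhb13 had 5, 2 and 4 counts in heterozygous libraries and passed the filter through the WT ones.

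Members tested in more than 1 tissue were set side by side, beside the same counts over all genes. In brain and kidney 24 of 40 had the same sign (54.9% of all genes did), and 6 had an unadjusted p under 0.05 in both (edgeR), where 0.558% of all genes did. Pcdhb12, Pcdhb13, Pcdhga5, Pcdhga6 and Pcdhga12 were lower in both. In kidney Pcdhb13 passed the filter through its WT libraries, where it was higher. Pcdhga8 was higher in heterozygous brain and lower in heterozygous kidney (0.315, 0.214 and 0.316 CPM in WT against 0.137, 0.204 and 0.132 CPM). In kidney and muscle 25 of 33 had the same sign (52.2% of all genes). Pcdhb3, Pcdhb7 and Pcdhb8 were higher in both at that p, where 0.85% of all genes passed it in both. In muscle these genes passed the filter only with the heterozygous libraries included, where they were higher. In brain and muscle 26 of 33 had the same sign (49.6% of all genes), and Pcdhgb4 was higher in both at that p (0.449% of all genes). The pairs with liver or spleen had few members. The same sign was found in 5 of 6 for brain and liver and for kidney and liver, 2 of 6 for liver and muscle, 5 of 9 for brain and spleen, 4 of 9 for kidney and spleen, 4 of 8 for muscle and spleen, and 1 of 3 for liver and spleen. Of these, Pcdhgc3 in liver and spleen had an unadjusted p under 0.05 in both, with opposite signs (0.31% of all genes passed in both). The stretch from Pcdhb9 to Pcdhb22 was negative in 11 of its 14 genes in kidney and 11 of 13 tested in muscle, whereas the stretch from Pcdhga7 to Pcdhga11 was positive in 2 of 8 in kidney and 4 of 5 in muscle. Since the tissues may come from the same animals, such matches are not independent.

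Over all 30 libraries, 55 members could be tested. These fits took the 30 libraries as independent, though libraries of different tissues may come from the same animals. If they do, the p-values of the shared effect can be too small, in edgeR and in DESeq2. For an effect of genotype common to the tissues, none was called, where 0.194% of all genes were, and 14 had an unadjusted p under 0.05 (8 higher and 6 lower), where 5.91% of all genes did. The smallest p belonged to Pcdhb13 (log2 fold change -1.06, SE 0.24, edgeR adjusted p = 0.0538), Pcdhgb4 (0.92, SE 0.22, adjusted p = 0.105) and Pcdhb8 (0.69, SE 0.21, adjusted p = 0.281). DESeq2 called Pcdhb13 (adjusted p = 0.000478) and Pcdhgb4 (0.00107), where 0.638% of genes were called. With each tissue left out in turn, the edgeR adjusted p of Pcdhb13 ran from 0.0601 (without spleen) to 0.665 (without kidney, log2 fold change -0.76). That of Pcdhgb4 ran from 0.0465 (without spleen) to 0.630 (without brain, log2 fold change 0.83). The shared effect thus depended on single tissues. For a genotype effect that differs between tissues, none was called, where 0.758% of all genes were, and 5 had an unadjusted p under 0.05, where 6.66% did. Pcdhgc3, lower in heterozygous liver and, with overlap, higher in heterozygous spleen, had the smallest p (adjusted p = 0.152), followed by Pcdhb4 (0.601) and Pcdhga12 (0.667). With each tissue left out in turn, the edgeR adjusted p of Pcdhgc3 ran from 0.119 (without muscle) to 0.648 (without spleen). DESeq2 called Pcdhgc3 (adjusted p = 0.0013), where it called 3.92% of genes. The differences between tissues described above were thus not established by edgeR.

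Few genes of the listed machinery and neighbourhood differed in brain. Of the 14 genes of cohesin, its loaders and Ctcf, 1 had an unadjusted p under 0.05 (edgeR), Ctcf itself. Of the 20 genes for DNA methylation, silencing and promoter binding 0 did, and the smallest p belonged to the DNA methyltransferase Dnmt3b (log2 fold change -0.48, SE 0.23) and the methylcytosine oxidase Tet3 (0.16, SE 0.09). Of the 12 non-clustered protocadherins 0 did, with Pcdh9 (0.13, SE 0.11) and Pcdh1 (0.12, SE 0.11) first by p. Of the 20 listed intracellular partners of protocadherins 0 did, with Axin1 (0.14, SE 0.07) first and the receptor kinase Ret at 0.20 (SE 0.15). Of 22 neighbouring genes on chromosome 18 0 did, with Fchsd1 at -0.16 (SE 0.10) and Pcdh1 first. The difference between these lists and the members of the clusters was not tested.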

How the data were processed

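The authors deposited whole-number counts of fragments per gene for each tissue, produced by featureCounts 1.5.0-p3 over exons of Ensembl release 86 (GRCm38), without strand and without multi-mapping or multi-overlapping fragments, per the file headers. STAR, FastQC and DESeq2 are named in the submitters' processing notes. The aligner version and read length are not given in the sources used here. Each table was fitted whole in R 4.3.3 with edgeR 4.0.16: filterByExpr on the groups, TMM scaling, quasi-likelihood F-tests and Benjamini-Hochberg adjustment over all genes tested, with calls at adjusted p under 0.05. The script was tested on simulated data. Genotype was tested within each tissue, brain against the other tissues in the 15 WT libraries, and the interaction and the shared effect in all 30. Alternatives were DESeq2 1.42.0, other scalings and filters, a replicate block and left-out libraries. Floors use 3 counts. Unshared exon bases were computed from the exon coordinates in the files, and the 1000-base minimum was chosen after these were seen. No protocadherin sequence is printed.

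The members and gene lists were chosen with earlier results of these data known. Named are members called in a tissue, up to 8 per tissue with the smallest p among those whose groups do not overlap, the 3 highest and 1 lowest of each cluster in WT brain, the leader of each cluster elsewhere, the C-type genes, the 3 smallest p of the interaction and shared tests, and 2 genes of each list. Pcdhga6 in brain, Pcdhga8 in kidney, Pcdhgb4 in muscle and the genes below p of 0.05 in 2 tissues were added after their values were seen. Replicate pairs of a group differed beyond sampling noise in all 30 comparisons. Same-numbered WT and heterozygous libraries deviated together in brain (r = 0.207, 0.383 and 0.537) and kidney (0.209, 0.19 and 0.212). In brain WT replicate 2 and heterozygous replicate 1 also did (r = 0.216). Replicate 3 of both genotypes in kidney held skeletal muscle markers, whose part in this was not tested. A pairing would thus come from the data and not from the labels. The block was run as an alternative only. Counts, SE and p-values come from fits without it unless a block is named.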

Additional observations from a re-analysis of the deposited data

How the results depend on the processing

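In brain 1 member was called. The count was 4 with DESeq2, 3 with the replicate block, 0 without replicate 3 of both genotypes (chosen after seeing the data), 0 in a fit of all 30 libraries, and 0 to 0 when each library was left out in turn, and it stayed at 1 under the other scalings and filters. In muscle the fit of all 30 libraries called 1 member, Pcdhb8. DESeq2 called 1 member for a tissue-dependent effect and 2 for a shared effect, and the shared test in edgeR called 1 member with total-count scaling and 1 without spleen. The replicate block changed no count of calls in the other tissues. The numbers were not taken to pair the libraries in liver (r = 0.0512, 0.118 and 0.277), muscle (0.0829, 0.183 and 0.271) or spleen (-0.472, -0.227 and 0.475). There WT replicate 1 agreed more with heterozygous replicate 2 than with heterozygous replicate 1 (r = 0.274, 0.119 and 0.764). Of 643 alternative values of 48 named log2 fold changes, 614 kept their direction and side of the threshold, 8 lost and 5 gained a call, and 16 in 9 results changed sign. Pcdhgc4 in brain became 0.0052 in the fit of all 30 libraries. With libraries left out in turn the log2 fold change in brain ran from -0.020 to 0.59 for Pcdhac1, -0.093 to 0.32 for Pcdhac2, -0.17 to 0.054 for Pcdhgc4, -0.011 to 0.22 for Pcdhgc5, -0.16 to 0.33 for Pcdha8 and -0.23 to 0.59 for Pcdhb1. In kidney it ran from -0.68 to 0.89 for Pcdhgc5 and -0.062 to 0.19 for Pcdhb17, and in spleen from -0.078 to 0.65 for Pcdhgc4. The cause was not tested. Depth limits alpha outside brain and most members in liver and spleen.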
